A study of Mus musculus with 4 samples.

Results

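Arrector pili muscle cells are the smooth muscle cells that raise the hairs of the skin. Here they were the cells of sorted mouse back skin dermis in which at least 4 of 7 genes, Des, Synpo2, Lmod1, Npnt, Pcp4, Ckm and Mybpc1, had at least 1 UMI (unique molecular identifier, a counted transcript molecule) and in which at most 1 of the pericyte genes Rgs5, Higd1b, Rgs4 and Ndufa4l2 did. Of 13877 cells kept over 4 libraries, 631 met this rule, and they are called members below. The rule reads the same cells that are described, so the levels of these 11 genes are given as a description. They stayed among the genes fitted below and in the counts over all genes, but nothing is read from their p-values.

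The study sorted hair follicle mesenchyme from the back skin of mice of different ages and profiled it by droplet 3' single-cell RNA sequencing (10x Genomics). Mice were on the C57BL/6J background and carried α-SMACreERT2, a tamoxifen-activated Cre recombinase driven by the smooth muscle actin promoter, with a Cre-dependent reporter. All received 4-hydroxytamoxifen on postnatal days 3 and 4. The first 2-month library and the 18-month library came from α-SMACreERT2:RosaYFP mice and used chemistry version 2. The second 2-month library and the 12-month library used version 3, and their labels name α-SMACreERT2:RosaTDTomato mice. The protocol text names RosaYFP, so the reporter of these 2 libraries is not settled here. Each library pooled 2 mice and was loaded with 10000 sorted cells, an equal number from a reporter-positive and a Cd26-positive gate, all of them also positive for Itga9 or Cd200. Cd26 is the protein of Dpp4. Every age other than 2 months has 1 library, chemistry goes with the labelled reporter line, and the 2 libraries of 2 months differ in both.

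The arrector pili muscle is a thin bundle of smooth muscle that runs from the bulge of the hair follicle to the upper dermis. It receives sympathetic nerves, whose noradrenaline acts on alpha-adrenergic receptors, and it anchors to the bulge through nephronectin, the product of Npnt, and its receptor integrin alpha-8. Smooth muscle contracts when calcium and calmodulin activate myosin light chain kinase, and many of its contractile genes are switched on by serum response factor with its partner myocardin at a short DNA element, the CArG box.

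The libraries held 1906 and 2727 barcodes with version 2 (2 and 18 months) and 7023 and 5474 with version 3 (2 and 12 months). The labels give 2604, 3776, 6998 and 5415 recovered cells in that order, so the version 2 files hold fewer barcodes than the labels state, and the shares below have the files' cells as denominator. Barcodes below 500 genes or 1000 UMIs, or with 10% or more of their UMIs from mitochondrial genes, were dropped, which left 1729, 2506, 5555 and 4087 cells in that order with median UMIs of 6322, 6674, 12057 and 11923. In both version 2 libraries Ddx3y, a gene of the Y chromosome, was at 50.0 and 55.6 UMIs per 1000000 UMIs (CPM) and Xist at or near 0, whereas in both version 3 libraries Ddx3y was at 0 and Xist at 835 and 853 CPM, so sex also goes with chemistry. The eYFP entry of the files was counted in all 4 libraries, including the 2 labelled as tdTomato. It was at 1179 and 2912 CPM with version 2 (2 and 18 months) and 1629 and 1615 CPM with version 3 (2 and 12 months). Libraries shared few barcodes, 7 within version 2 and 11 within version 3, of which 2 belonged to members of the 2-month version 3 library.

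Members made up 68 of 1729 cells (3.93%, exact 95% binomial interval 3.07 to 4.96%) in the 2-month version 2 library and 18 of 2506 (0.718%, 0.426 to 1.13%) in the 18-month library of that chemistry. With version 3 they made up 536 of 5555 cells (9.65%, 8.88 to 10.5%) at 2 months and 9 of 4087 (0.220%, 0.101 to 0.418%) at 12 months. Within each chemistry the older library held the smaller share. The ratio of the shares was 0.183 (0.102 to 0.311) for 18 over 2 months and 0.0228 (0.0104 to 0.0437) for 12 over 2 months, and the intervals cover counting error only. The 2 libraries of 2 months themselves differed 2.45-fold (1.90 to 3.21). Each older age has 1 library, and no test of age was made.

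**Figure D1:**
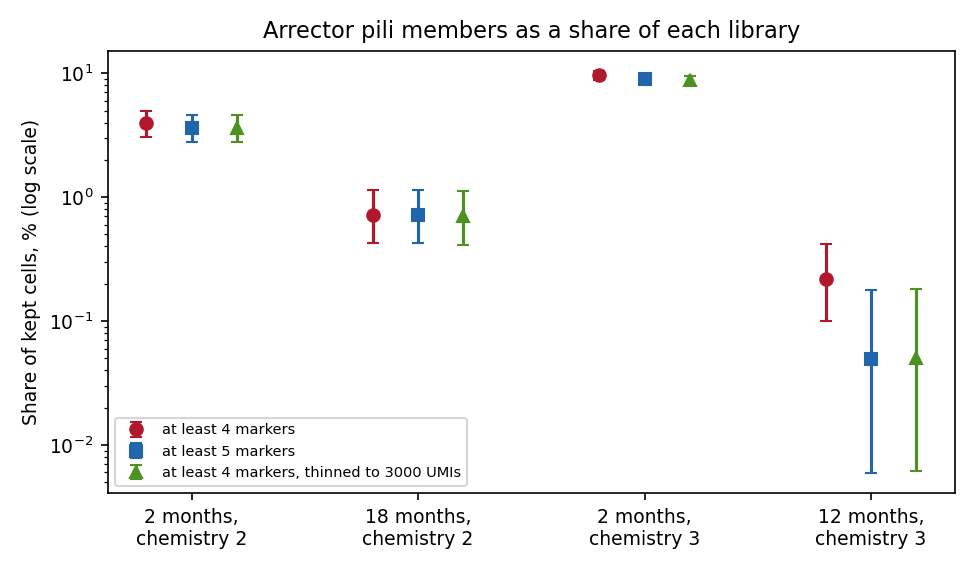
Members as a percentage of kept cells (log axis) in each of the 4 libraries, under the rule as given, with at least 5 genes required and with every cell thinned to 3000 UMIs, with exact 95% binomial intervals as bars. Both 2-month libraries lie above the older library of their chemistry.

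Depth and cell quality touched these shares to different degrees. After every cell was thinned to 3000 UMIs the shares were 3.64%, 0.701%, 8.78% and 0.0507% for 2 and 18 months with version 2 and 2 and 12 months with version 3. The mitochondrial limit removed 23 of 91 cells that met the gene rule in the 2-month version 2 library (25.3%), 8 of 26 at 18 months (30.8%), 56 of 592 in the 2-month version 3 library (9.46%) and none of 9 at 12 months. Among cells that did not meet the rule it removed 8.48%, 7.78%, 17.7% and 18.0%. Members that stayed had a median of 6.08%, 6.36% and 5.58% mitochondrial UMIs in the 2-month version 2, 18-month and 2-month version 3 libraries, against 2.99%, 3.23% and 2.85% in all other kept cells. The part of these losses in the shares by age was not tested beyond the settings given in the closing section. Shares of sorted cells also follow the sort gates, so they are not shares of the skin.

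The number of the 7 genes detected per cell left few cells at 4 or 5 genes. In the 2-month version 2 library 1214 cells had none of the genes, 7 had 4, 9 had 5, 27 had 6 and 28 had all 7. In the 2-month version 3 library 2417 cells had none, 40 had 4, 19 had 5, 134 had 6 and 347 had all 7. In the 18-month library 9 cells had all 7, and in the 12-month library 2 did, with no cell at 5 or 6.

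**Figure D2:**
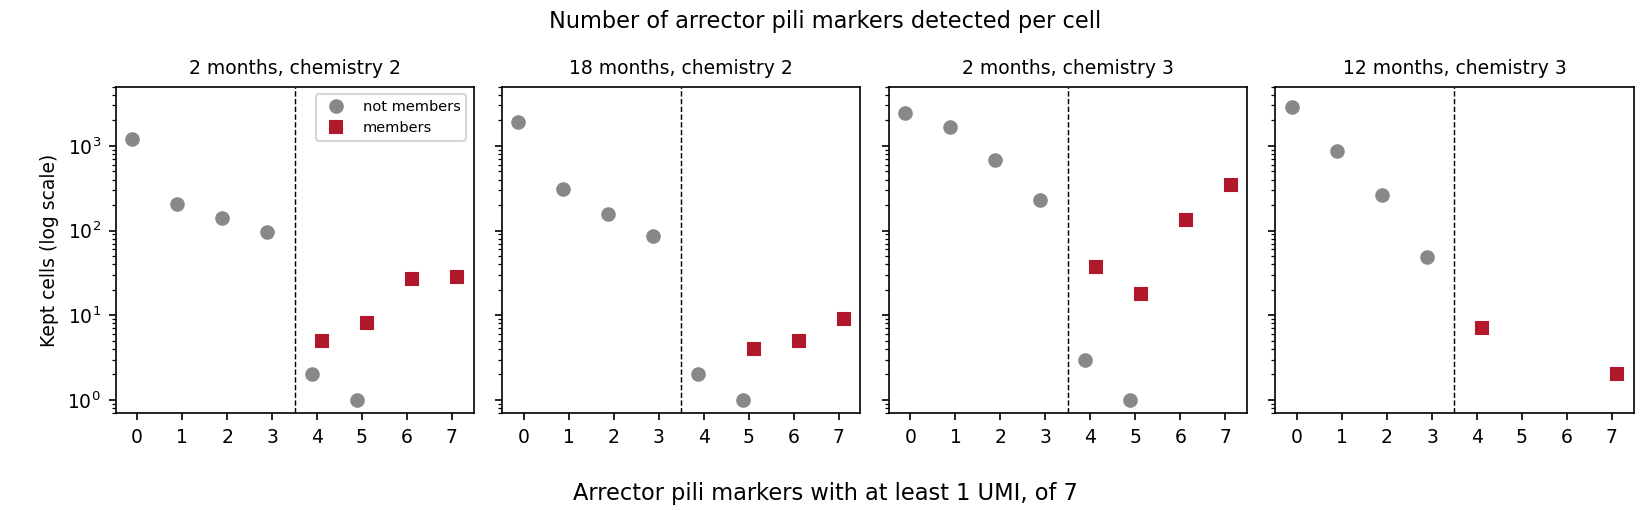
Number of kept cells (log axis) by how many of the 7 genes of the rule had at least 1 UMI, in each library, with members filled. Most members of the 2-month libraries carry 6 or 7 of the genes, whereas at 12 months 7 of 9 members carry exactly 4.

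At the edge of the rule the label did not hold for every cell. The 37 members of the 2-month version 3 library with exactly 4 genes, whose median was 17910 UMIs, had Des at 48.0, Myh11 at 46.8 and Adra1a at 1.20 CPM. Members of that library with 5 or more genes had 5120, 4996 and 177 CPM. The dermal sheath genes Tnmd and Col11a1 ran the other way, at 926 and 1592 CPM in the 4-gene members and 75.9 and 141 CPM in the rest. The 205 cells just outside the rule, with 3 genes, had Des at 50.3 and Tnmd at 955 CPM, so the 4-gene members of this library carried the levels of the cells outside it. In the version 2 library the 5 members with 4 genes had Des at 1001, Myh11 at 1830 and Adra1a at 85.8 CPM.

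The same held for most of the 12-month members. The 7 with 4 genes had no UMI of Des or Adra1a, Myh11 at 31.0 CPM and Col11a1 at 2009 CPM. The 2 cells with all 7 genes had Des at 5319, Myh11 at 4971, Adra1a at 174 and Acta2 at 25401 CPM, and no UMI of Tnmd or Col11a1. With at least 5 genes required, members at 12 months fell to those 2, 0.0489% of cells, against 8.98% at 2 months with version 3, and in version 2 the shares were 3.64% at 2 months and 0.718% at 18. The 12-month members were therefore left out of all gene comparisons below.

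Each marker was also read in cells chosen by the other 6. Des was found in 100%, 100% and 98.2% of the cells with at least 4 of the others in the 2-month version 2, 18-month and 2-month version 3 libraries. Ckm, the muscle creatine kinase, was found in 89.6%, 88.9% and 92.2%, against 0.842%, 0.281% and 3.84% of the other cells. Mybpc1, a myosin-binding protein best known from slow skeletal muscle, was found in 71.6%, 72.2% and 89.6%. Npnt, the nephronectin gene (chromosome 3, 132881745 to 132950291, GRCm38.p6), was found in 90.8%, 77.8% and 95.2%. Pcp4, which encodes a small calmodulin-binding protein, was found in 64.2%, 100% and 75.1%. Markers of skeletal muscle fibres were low in members, with a summed level of 62.7, 54.8 and 53.8 CPM over 14 genes, of which 8, 12 and 5 were at 0. Pericyte and vascular markers summed to 136, 46.9 and 140 CPM over 11 genes, with 3, 9 and 3 at 0. These 11 include the 4 pericyte genes that the rule itself limits, so the low sum is partly set by the choice of members. Endothelial markers summed to 33.2, 23.5 and 18.8 CPM over 10 genes. Keratinocyte markers summed to 641, 282 and 2432 CPM over 10 genes and dermal fibroblast markers to 1399, 649 and 579 CPM over 10. Without the members that carried at least 7 markers of another class, 904 of the 907 genes called against pericyte-gated cells below were called again in the same direction.

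Genes were compared in the 2 libraries of 2 months by summing the counts of the members and of 3 other populations in each library. Pericyte-gated cells, taken as the other contractile cells of the sort, carried at least 3 of the 4 pericyte genes and under 3 of the 7 genes of the rule. They numbered 124 and 22 with version 2 and 3. Dermal-sheath-gated cells (299 and 1661) carried at least 2 of Tnmd, Col11a1, Stmn2 and Npr3 and at most 1 of the 7 genes. They also had at most 1 pericyte gene and at most 1 of Corin, Hhip, Rspo4 and Lef1. None had a UMI of Ptprc, Pecam1 or Cdh5. The remaining cells numbered 1238 and 3336, including 86 and 25 with 3 of the 7 genes and over 1 pericyte gene. In these 86 and 25 cells Myh11 was at 1480 and 769 CPM and Acta2 at 13769 and 4669 CPM. What leaving such cells out of the pericyte gate does to the comparisons was not tested. The 8 sums were fitted with edgeR's quasi-likelihood test with library as a block, and genes with a Benjamini-Hochberg adjusted p below 0.05 were called. With library as a block, the residual spread is how far the differences between populations disagree between the 2 libraries. It has 3 residual degrees of freedom over all 4 populations. Each library pools 2 mice, so the spread between mice is not measured. An alternative called matched depth below kept only comparison cells at or above the 10th percentile of UMIs of their library's members. It set no upper limit on depth and left 74 and 9 pericyte-gated cells with version 2 and 3. What these smaller sums do to calls lost at matched depth was not tested. Of 13025 genes, 392 were called higher (3.01%) and 515 lower (3.95%) in members than in pericyte-gated cells, 6.96% in all. Against dermal-sheath-gated cells 925 were higher (7.1%) and 808 lower (6.2%), 13.3% in all. Against the remaining cells 948 were higher (7.28%) and 1175 lower (9.02%), 16.3% in all. In all 3 comparisons 247 were higher (1.9%), 6 of which are genes of the rule whose outcome the choice of members fixed, and 68 were lower (0.522%). The lists below leave out the genes of the rule. The median log2 fold change over all genes was 0.07, -0.15 and -0.18 in that order. Below, 2 values joined by "and" are the version 2 and version 3 libraries of 2 months.

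Genes of the thick and thin filaments were higher in members than in every other population for 9 of 21 tested, against 247 of all 13025 genes (1.9%). By comparison, 9 rose and 2 fell against pericyte-gated cells, 16 rose and 2 fell against dermal-sheath-gated cells, and 17 rose against the remaining cells, with median log2 fold changes of 1.77, 2.77 and 3.59. Mylk, the myosin light chain kinase that starts smooth muscle contraction, was at 7012 and 5880 CPM in members, 1085 and 576 in pericyte-gated, 323 and 461 in dermal-sheath-gated and 139 and 245 CPM in remaining cells. Members were above every other population in both libraries, by a log2 fold change of 3.06 ± 0.43 (SE, adjusted p = 0.00562), 4.11 ± 0.45 (adjusted p = 0.00169) and 5.23 ± 0.47 (adjusted p = 0.000856). Cnn1, the actin-binding calponin of smooth muscle, was at 2547 and 1729 CPM in members and between 8.51 and 94.4 CPM in the others, with log2 fold changes of 5.32 ± 0.68, 7.23 ± 0.73 and 7.04 ± 0.71.

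Both smooth muscle actins were highest in members. Actg2, the gamma form found in visceral smooth muscle, was at 4322 and 2614 CPM in members, 55.4 and 113 in pericyte-gated and 424 and 636 CPM in dermal-sheath-gated cells. Its log2 fold change against pericyte-gated cells was 5.71 ± 0.69 (adjusted p = 0.00348). Acta2 (chromosome 19, 34240336 to 34255585), the alpha form whose promoter drives the Cre, was at 20353 and 20585 CPM in members, 9748 and 3333 in pericyte-gated, 2885 and 5926 in dermal-sheath-gated and 1110 and 2830 CPM in remaining cells. Members held more Acta2 in both libraries. The difference from pericyte-gated cells, 1.71 ± 0.61, was not called (adjusted p = 0.152), while those from dermal-sheath-gated cells, 2.32 ± 0.62 (adjusted p = 0.0437), and remaining cells, 3.59 ± 0.65 (adjusted p = 0.0121), were. The call against dermal-sheath-gated cells was lost at matched depth (2.39, adjusted p = 0.0623). The difference between the 2 actins was not tested.

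Myh11, the smooth muscle myosin heavy chain, was at 3546 and 4436 CPM in members, 768 and 388 in pericyte-gated, 5.10 and 21.1 in dermal-sheath-gated and 86.3 and 30.7 CPM in remaining cells. It was called against the last 2 populations, with log2 fold changes of 8.16 ± 0.96 and 6.23 ± 0.89, and missed against pericyte-gated cells at 2.95 ± 0.77 (adjusted p = 0.0615). Myh9, the main non-muscle myosin heavy chain, was at 35.02 and 112 CPM in members against 149 and 472 in pericyte-gated and 207 and 295 CPM in dermal-sheath-gated cells. It fell against both, by 1.91 ± 0.36 and 1.88 ± 0.36 on the log2 scale. Tpm2, a muscle tropomyosin, rose against all 3 populations, from 3116 and 1144 CPM in pericyte-gated cells to 13229 and 13831 CPM in members, and Tpm4, a tropomyosin of non-muscle cells, fell against pericyte- and dermal-sheath-gated cells by 1.74 ± 0.38 and 1.71 ± 0.37.

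**Figure D3:**
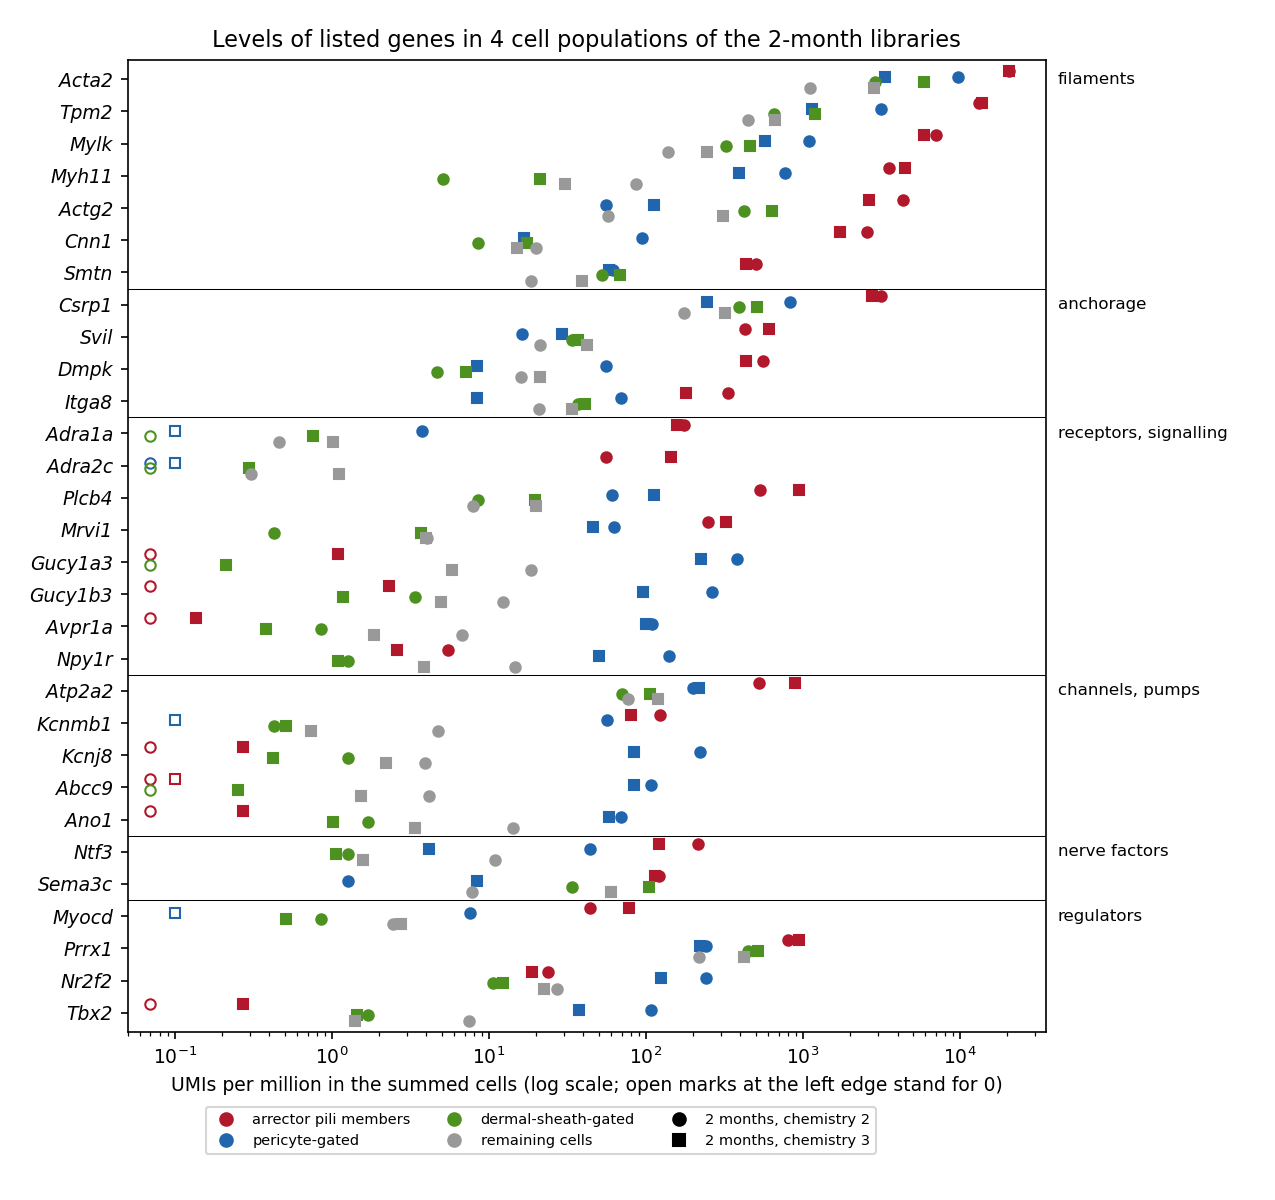
Level of selected genes (CPM, log axis) in members, pericyte-gated, dermal-sheath-gated and remaining cells of the 2 libraries of 2 months, circles for version 2 and squares for version 3, with open marks at the left edge for 0. Mylk, Cnn1 and Adra1a of members lie to the right of all other populations, and Kcnj8 and Abcc9 of members lie at or near 0.

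Genes that tie filaments to the cell membrane and to the matrix were called higher in members in all 3 comparisons for 12 of 31. They rose for 13, 22 and 26 of 31 against pericyte-gated, dermal-sheath-gated and remaining cells and fell for 2, 1 and 0, with medians of 1.78, 2.17 and 3.18. Svil, which encodes the membrane linker supervillin, was at 429 and 603 CPM in members and at most 42.1 CPM in any other population, with log2 fold changes of 4.69 ± 0.35, 3.92 ± 0.30 and 4.21 ± 0.30. Synm, an intermediate filament partner of desmin, was at 334 and 455 CPM against 76.8 and 58.5 in pericyte-gated cells, a log2 fold change of 2.62 ± 0.33 (adjusted p = 0.00404). Dmpk, a kinase of muscle cells, was at 555 and 432 CPM against 55.4 and 8.35 in pericyte-gated cells (3.87 ± 0.57). Dmd, the dystrophin gene, was at 218 and 258 CPM against 50.4 and 16.7 (2.68 ± 0.53). Members exceeded each other population in both libraries for these 4 genes.

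The receptor for nephronectin was among them. Itga8, integrin alpha-8 (chromosome 2, 12106632 to 12301985), was at 335 and 179 CPM in members, 69.2 and 8.35 in pericyte-gated, 37.0 and 41.2 in dermal-sheath-gated and 20.9 and 34.0 CPM in remaining cells. It rose against all 3, by 2.66 ± 0.61 (adjusted p = 0.0397), 2.69 ± 0.56 (adjusted p = 0.0180) and 3.28 ± 0.57 (adjusted p = 0.0108). Its ligand Npnt, a gene of the rule, was at 358 and 337 CPM in members against 0 and 4.18 in pericyte-gated, 2.55 and 9.65 in dermal-sheath-gated and 1.92 and 16.9 CPM in remaining cells. The choice of members and the gates favour this difference, so it is a description only. In cells chosen by at least 4 of the other 6 genes Npnt was at 352 and 367 CPM, against 2.53 and 14.8 CPM in all other cells. Sorbs2, an adaptor of actin attachment sites, went the other way, at 14.7 and 0.680 CPM against 189 and 79.4 in pericyte-gated cells, a fall by 5.06 ± 0.83. Pdlim1, an alpha-actinin partner, fell against pericyte-gated cells by 3.44 ± 0.40.

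A CArG box was sought in the 250 bases before the annotated start of each gene in the RefSeq promoter table (GRCm38.p6), reading both strands, which are equivalent for this motif. A match was found for 439 of 27025 genes with an entry (1.62%) and 145 of 9801 tested genes (1.48%). It was found for 3 of 18 filament genes with an entry (16.7%), 6 of 28 anchorage genes (21.4%) and 10 of 186 genes called higher in all 3 comparisons (5.38%). Lists of other kinds held it too, with 3 of 22 regulator genes (13.6%), 3 of 27 striated muscle genes (11.1%), 2 of 18 hedgehog and Wnt genes (11.1%) and 2 of 22 rapid response genes (9.09%). Receptor genes had 0 of 29 and metabolic genes 0 of 24. A match describes these letters only and is not a measured binding site. The 30 bases around some of the matches are shown, 5′ to 3′ on the strand of the gene with the CArG box in capitals, because they let the boxes of filament and anchorage genes be compared. Myl9 and Myl6 encode myosin light chains. Dmd, Fhl1, Ldb3, Vcl and Fermt2 encode parts of the anchorage, and Asb2, a ubiquitin ligase subunit of muscle, was called higher in all 3 comparisons.
Myl9 (chr2:156775293-156775322, plus strand): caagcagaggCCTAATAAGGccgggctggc
Myl6 (chr10:128493040-128493069, minus strand): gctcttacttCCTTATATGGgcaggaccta
Dmd (chrX:82948762-82948791, plus strand): catgggcagtCCTATTATGGgaaagcaact
Fhl1 (chrX:56779571-56779600, plus strand): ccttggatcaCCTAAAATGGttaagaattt
Ldb3 (chr14:34588697-34588726, minus strand): gggttacagtCCATTTATGGgcgcagcaag
Vcl (chr14:20929161-20929190, plus strand): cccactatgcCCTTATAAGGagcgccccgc
Fermt2 (chr14:45530250-45530279, minus strand): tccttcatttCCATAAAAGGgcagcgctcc
Asb2 (chr12:103356046-103356075, minus strand): agaaacatacCCATATATGGgctccatgtc

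The boxes start 161 bases before the start of Myl9, 50 before Myl6, 98 before Dmd, 102 before Fhl1, 227 before Vcl, 204 before Fermt2 and 64 before Asb2. Genes with a box did not all move in the same way. Fhl1 rose in all 3 comparisons, from 51.6 and 29.2 CPM in pericyte-gated cells to 581 and 236 CPM in members (3.35 ± 0.46), and Asb2 was at 131 and 138 CPM in members against 41.5 and 16.7 in pericyte-gated cells (2.56 ± 0.61). Vcl, the vinculin gene, was at 194 and 209 CPM against 175 and 188 in pericyte-gated cells, a difference of 0.25 ± 0.32 that was not called (adjusted p = 0.751).

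The promoter of Srf, which encodes serum response factor itself, held 2 such boxes, 82 and 62 bases before its start, and is shown because the factor binds this element.
Srf (chr17:46556205-46556254, minus strand): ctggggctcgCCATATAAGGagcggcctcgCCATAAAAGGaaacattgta
Srf was at 70.0 and 58.9 CPM in members, 18.9 and 25.1 in pericyte-gated, 23.8 and 22.6 in dermal-sheath-gated and 15.9 and 30.9 CPM in remaining cells. It rose in all 3 comparisons, by 1.69 ± 0.39 (adjusted p = 0.0404), 1.53 ± 0.32 (adjusted p = 0.0174) and 1.61 ± 0.31 (adjusted p = 0.0149). With comparison cells of matched depth the call against pericyte-gated cells was lost (1.92, adjusted p = 0.0514).

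Among transcription and developmental regulators, members carried myocardin and lacked several factors of pericytes. Of 29 tested, 5 rose and 8 fell against pericyte-gated cells, 3 rose and 3 fell against dermal-sheath-gated cells, and 5 rose and 6 fell against the remaining cells, with medians of -1.12, -0.70 and -0.33. Myocd, the coactivator of serum response factor in smooth muscle, was at 44.2 and 78.4 CPM in members, 7.55 and 0 in pericyte-gated, 0.851 and 0.508 in dermal-sheath-gated and 2.45 and 2.75 CPM in remaining cells. It rose by 3.60 ± 0.68, 6.90 ± 0.62 and 4.75 ± 0.50. Prrx1, a homeobox gene of limb and skin mesenchyme, was at 807 and 940 CPM against 243 and 221 in pericyte-gated cells (2.00 ± 0.31) and was not called against dermal-sheath-gated cells (0.94 ± 0.29, adjusted p = 0.0700).

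Tbx2, a T-box repressor, had 0 and 2 UMIs in members and stood at 107 and 37.6 CPM in pericyte-gated cells, at least 19.4-fold lower in members of the version 2 library against a floor of 3 UMIs. Heyl, a Notch target, was at 1.84 and 0.272 CPM against 102 and 20.9 (a fall by 6.20 ± 0.58). Meox2, a homeobox gene of vessels, fell by 5.96 ± 0.67, and Nr2f2, a nuclear receptor of veins, fell by 2.95 ± 0.38, from 240.5 and 125.3 CPM to 24.0 and 18.8 CPM. In both libraries the members lay below the pericyte-gated cells for these genes.

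Of the receptor genes, Adra1a and Adra2c were the 2 called higher against pericyte-gated cells. Adra1a, the alpha-1A receptor through which noradrenaline contracts smooth muscle (chromosome 14, 66635251 to 66771240), was at 175 and 157 CPM in members (95 and 1157 UMIs) and at 172 CPM at 18 months (22 UMIs). It was at 3.78 and 0 CPM in pericyte-gated, 0 and 0.762 in dermal-sheath-gated and 0.460 and 1.02 CPM in remaining cells. The log2 fold changes were 5.91 ± 0.71 (adjusted p = 0.00326), 8.15 ± 0.62 (adjusted p = 0.000591) and 7.90 ± 0.56 (adjusted p = 0.000740).

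At least 1 UMI of Adra1a was found in 72.1%, 50.0% and 77.1% of members in the 2-month version 2, 18-month and 2-month version 3 libraries. In cells gated as macrophages or dendritic cells, which should lack it, the shares were 0.781%, 0% and 1.15%, at median depths of 10605.5, 7857 and 9230.5 UMIs against 7660.5, 6637.5 and 12182 in members. After thinning to 3000 UMIs the members' shares were 39.7%, 33.3% and 41.7%, and those of the macrophage gate 0%, 0% and 0.122%.

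Other adrenergic subtypes were also found. Adra2c, the alpha-2C receptor, was at 55.3 and 144 CPM in members and had no UMI in pericyte-gated cells, at least 14.6-fold and 11.5-fold higher per library against a floor of 3 UMIs. Against dermal-sheath-gated and remaining cells its log2 fold changes were 9.04 ± 0.50 and 7.33 ± 0.40. Adra1b, the alpha-1B receptor, was at 24.0 and 18.1 CPM in members and at 7.55 and 0 CPM in pericyte-gated cells, and its difference from these was not called (2.07 ± 0.79, adjusted p = 0.179). The muscarinic receptor gene Chrm3, through which acetylcholine contracts many smooth muscles, had 0 UMIs in the 68 members of version 2 and a UMI in 0.187% of members of version 3. The share in the macrophage and dendritic gate of version 3 was 0.344%, so the members' value is read as background. The absence of UMIs sets no limit on the cells that express it.

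Over all 24 receptors tested, 2 rose and 6 fell against pericyte-gated cells, 3 rose and 4 fell against dermal-sheath-gated cells, and 3 rose and 2 fell against the remaining cells. Their medians were -1.22, -0.66 and -1.44, or -2.48, -0.31 and -1.29 with genes at 0 in a population set at their bound. Avpr1a, the vasopressin receptor of vascular muscle, had 0 and 1 UMIs in members and stood at 110 and 100.2 CPM in pericyte-gated cells, at least 19.8-fold lower in version 2. The others that fell against pericyte-gated cells were Adra2a, P2rx1, Ednra, Agtr1a and Npy1r. Tbxa2r, the thromboxane receptor, was at 42.4 and 55.9 CPM in members against 15.1 and 4.18 CPM in pericyte-gated cells and was called in no comparison (1.96 ± 0.58 against these, adjusted p = 0.0928). Ednra, the endothelin receptor A, had 0 UMIs and 21.9 CPM against 120 and 125.3 CPM in pericyte-gated cells and fell by 3.24 ± 0.67 (adjusted p = 0.0266).

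Genes of contraction signalling also split between the 2 contractile populations. Of 23 tested, 4 rose and 5 fell against pericyte-gated cells, 11 rose and 2 fell against dermal-sheath-gated cells, and 10 rose and 2 fell against the remaining cells (medians -0.30, 1.62 and 0.65). Plcb4, a phospholipase C that Gq-coupled receptors activate, was at 533 and 943 CPM in members, 60.4 and 113 in pericyte-gated, 8.51 and 19.5 in dermal-sheath-gated and 7.98 and 19.98 CPM in remaining cells. It rose by 3.22 ± 0.29, 5.83 ± 0.32 and 5.94 ± 0.32. Mrvi1, a substrate of cyclic GMP kinase at calcium stores, rose in all 3 comparisons, from 62.9 and 45.9 CPM in pericyte-gated cells to 249 and 324 CPM. Rgs2, which limits Gq signalling, was at 464 and 354 CPM against 80.6 and 41.8 in pericyte-gated cells (2.91 ± 0.42).

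The receptor for nitric oxide was almost undetected in members. Gucy1a3, a subunit of soluble guanylate cyclase, had 0 and 8 UMIs in members and stood at 380 and 226 CPM in pericyte-gated cells, at least 68.8-fold lower in version 2 against the floor of 3 UMIs. In version 3 the plain ratio was 207-fold. Gucy1b3, the other subunit, had 0 and 17 UMIs in members, at least 47.4-fold lower in version 2, with a plain ratio of 41.6-fold in version 3. Pde3a, a phosphodiesterase of vascular muscle, fell in all 3 comparisons, from 183 and 113 CPM in pericyte-gated cells to 7.37 and 13.1 CPM in members.

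Ion channels of pericytes were at or near 0 in members too. Of 21 channel genes tested, 1 rose and 5 fell against pericyte-gated cells, 8 rose and 1 fell against dermal-sheath-gated cells, and 9 rose and 4 fell against the remaining cells. Kcnj8 and Abcc9 encode the pore and the regulatory subunit of the vascular ATP-sensitive potassium channel. Kcnj8 had 0 and 2 UMIs in members against 222 and 83.5 CPM in pericyte-gated cells, and Abcc9 had none in either library against 107 and 83.5 CPM, at least 19.4-fold and 205-fold lower. Ano1, a calcium-activated chloride channel, had 0 and 2 UMIs against 69.2 and 58.5 CPM. Kcnmb1, the beta-1 subunit of the calcium-activated potassium channel, was by contrast at 124 and 80.0 CPM in members, 56.6 and 0 in pericyte-gated and under 5 CPM in the other cells, and was called against these only (7.29 ± 0.87 and 5.88 ± 0.76).

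Of 23 genes for calcium handling, 2 rose and 3 fell against pericyte-gated cells, 8 rose and 2 fell against dermal-sheath-gated cells, and 9 rose and 3 fell against the remaining cells. Atp2a2, the calcium pump of the sarcoplasmic reticulum, was at 527 and 886 CPM against 200.2 and 217 in pericyte-gated cells and rose in all 3 comparisons (1.83 ± 0.30 against these, adjusted p = 0.0107). Pln, phospholamban, which restrains this pump, had 0 and 1 UMIs in members. In pericyte-gated cells it was at 157 CPM with version 2 and at 0 with version 3, so its level there was not alike in the 2 libraries. Jph2, which ties the reticulum to the plasma membrane, was at 159 and 153 CPM against 16.4 and 37.6 in pericyte-gated cells (2.82 ± 0.50).

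**Figure D4:**
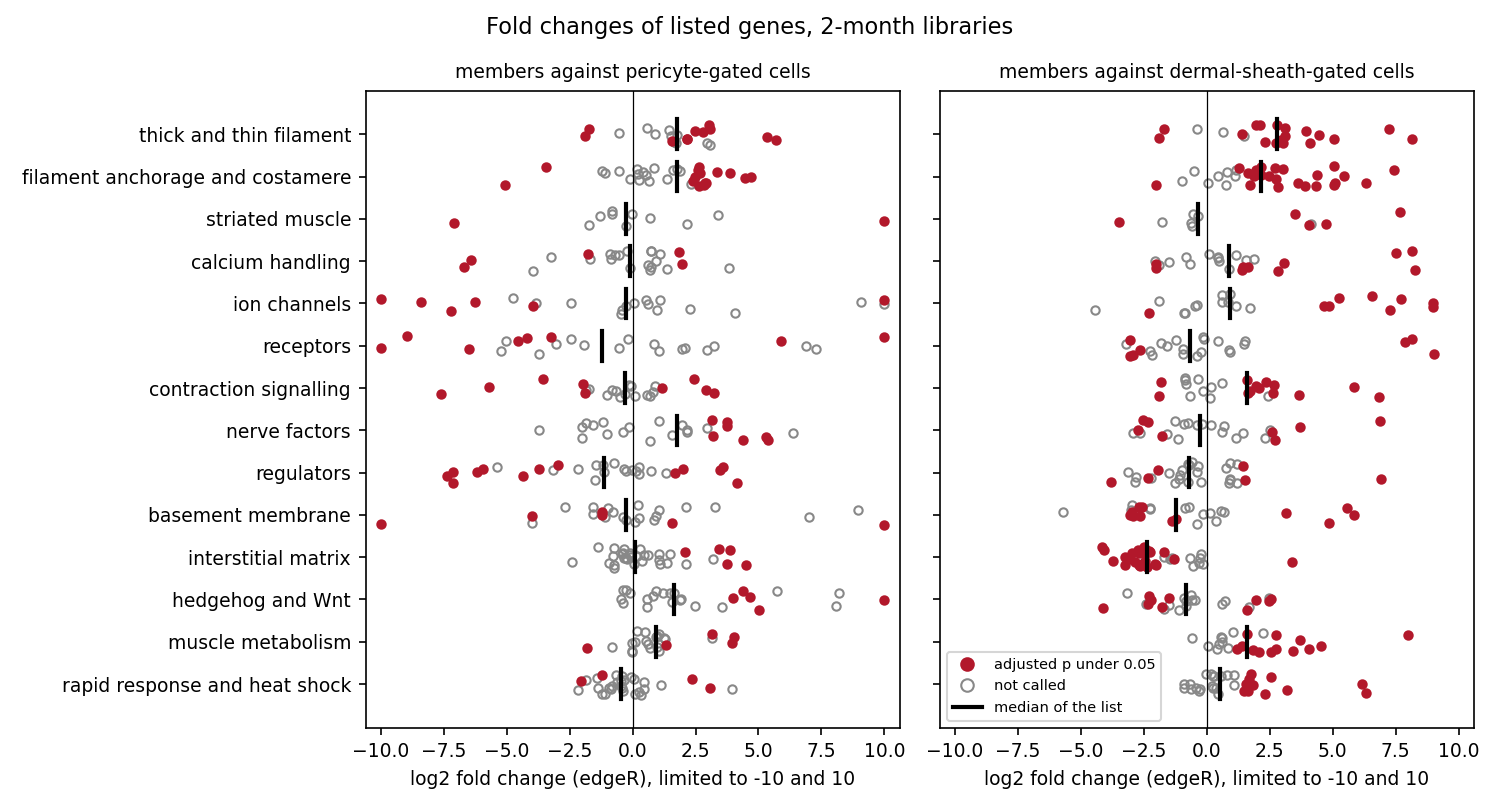
Fitted log2 fold change of members over pericyte-gated and dermal-sheath-gated cells for the tested genes of each list, 1 point per gene with called genes filled and a bar at the list median, drawn between -10 and 10. Filament and anchorage genes lie mostly above 0 in both panels, and interstitial matrix genes lie mostly below 0 against dermal-sheath-gated cells.

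Nerve-directed factors included neurotrophin-3. Of 24 genes for nerve guidance and trophic support, 7 rose and none fell against pericyte-gated cells, with 4 rising and 4 falling in each of the other comparisons (medians 1.76, -0.28 and -0.14). The first median was 1.32 with the gene at 0 in a population set at its bound. Ntf3, which supports sympathetic neurons among others, was at 216 and 122 CPM in members, 44.1 and 4.18 in pericyte-gated, 1.28 and 1.06 in dermal-sheath-gated and 10.97 and 1.59 CPM in remaining cells. It rose by 3.16 ± 0.71 (adjusted p = 0.0364), 6.90 ± 0.73 and 5.35 ± 0.66.

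Some guidance and adhesion genes were called against pericytes but not against the sheath. Sema3c, a secreted semaphorin, was at 122 and 114 CPM in members and 1.26 and 8.35 in pericyte-gated cells (5.31 ± 0.93), but at 33.6 and 104 CPM in dermal-sheath-gated cells, which was not called (adjusted p = 0.232). Ncam1, a neural adhesion molecule, was at 192 and 169 CPM in members, 7.55 and 29.2 in pericyte-gated and 223 and 207 CPM in dermal-sheath-gated cells. It rose against pericyte-gated cells (3.76 ± 0.50, adjusted p = 0.00497) and was not called against dermal-sheath-gated (-0.18 ± 0.37) or remaining cells (0.23 ± 0.37), and the comparisons were not tested against each other.

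Matrix genes set members apart from the sheath. Of 34 genes of the elastic and interstitial matrix, 24 fell and 1 rose against dermal-sheath-gated cells with a median of -2.39, while 5 rose against pericyte-gated cells (0.11) and 4 fell against the remaining cells (-0.84). With members of at least 5 genes only, the fall against the remaining cells covered 16 genes. Col1a1, the main fibrillar collagen, was at 1049 and 1976 CPM in members, 471 and 1186 in pericyte-gated, 12336 and 12479 in dermal-sheath-gated and 2114 and 5122 CPM in remaining cells. It fell against dermal-sheath-gated cells by 3.08 ± 0.37 (adjusted p = 0.00245). Postn, periostin, fell against them by 4.08 ± 0.78, at 20.3 and 156 CPM against 1697 and 1246.

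Among 25 basement membrane and anchoring genes, 2 rose and 4 fell against pericyte-gated cells, 4 rose and 8 fell against dermal-sheath-gated cells, and 6 rose and 5 fell against the remaining cells. Lama4, a laminin chain of muscle and vessels, was at 120 and 96.0 CPM against 47.8 and 29.2 in pericyte-gated cells and rose in all 3 comparisons. With comparison cells of matched depth its call against pericyte-gated cells was lost (1.57, adjusted p = 0.0559). Col4a5, a minor type IV collagen chain, was at 44.2 and 37.8 CPM against at most 4.30 in dermal-sheath-gated and remaining cells (4.84 ± 0.50 and 3.85 ± 0.45). Col4a6, which is paired head to head with it, was at 20.3 and 18.5 CPM against 0 in pericyte-gated cells of both libraries and at most 1.30 CPM elsewhere. Col4a1, a common chain, ran the other way at 181 and 336 CPM against 425 and 881 in dermal-sheath-gated cells (-1.24 ± 0.28), a call lost with comparison cells of matched depth (adjusted p = 0.0597).

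Hedgehog and Wnt genes showed 2 coreceptors high in members and 2 pathway targets lower than in dermal-sheath-gated cells. Of 25 genes, 5 rose and 0 fell against pericyte-gated cells, 4 rose and 6 fell against dermal-sheath-gated cells, and 2 rose and 11 fell against the remaining cells. Gas1, a hedgehog coreceptor, was at 291 and 459 CPM in members against 10.1 and 25.1 in pericyte-gated and 61.7 and 77.4 CPM in dermal-sheath-gated cells, and rose in all 3 comparisons (4.68 ± 0.37, 2.48 ± 0.29 and 3.56 ± 0.30). Boc, another coreceptor, rose in all 3 at 38.7 and 35.9 CPM. Gli1, the usual readout of hedgehog signalling, was at 3.69 and 10.5 CPM against 37.4 and 37.6 in dermal-sheath-gated cells (-2.20 ± 0.47). Ptch1, a receptor that is also a target, fell against dermal-sheath-gated and remaining cells by 1.49 ± 0.33 and 2.15 ± 0.33.

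Of 23 genes of creatine, glycolytic and mitochondrial muscle metabolism, 4 rose and 1 fell against pericyte-gated cells, and 13 rose and none fell in each of the other comparisons, with medians of 0.94, 1.59 and 1.46. Ckb, the brain-type creatine kinase, was at 2437 and 2901 CPM in members, 164 and 188 in pericyte-gated, 180 and 381 in dermal-sheath-gated and 82.2 and 215 CPM in remaining cells, with log2 fold changes of 4.02 ± 0.38, 3.41 ± 0.36 and 4.45 ± 0.38. Ppargc1a, a coactivator of mitochondrial genes, was at 24.0 and 33.3 CPM against 1.26 and 4.18 in pericyte-gated cells, a call (3.96 ± 0.78, adjusted p = 0.0229) that was lost at matched depth (adjusted p = 0.0514). Cox4i1, a subunit of cytochrome oxidase, was at 2433 and 2134 CPM against 1361 and 706 in pericyte-gated cells (1.31 ± 0.31). Its call against dermal-sheath-gated cells was lost at matched depth (adjusted p = 0.0502). The members' higher share of mitochondrial UMIs, given above, moves with these genes, and its part in the result was not tested.

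Of 11 tested genes on a list for striated muscle, 1 rose and 1 fell against pericyte-gated cells, 4 rose and 1 fell against dermal-sheath-gated cells, and 4 rose against the remaining cells (medians -0.27, -0.33 and 1.14). Of 30 rapid response and heat shock genes, 2 rose and 2 fell against pericyte-gated cells, 11 rose against dermal-sheath-gated cells, and 3 rose and 3 fell against the remaining cells. The 2 small heat shock protein genes that rose in all 3 comparisons were Hspb6 at 525 and 198 CPM against 86.9 and 16.7 in pericyte-gated cells (3.07 ± 0.42) and Hspb8 at 181 and 129 CPM against 52.9 and 12.5 (2.36 ± 0.42). Of others in the family, Hspb7 was not called against pericyte-gated cells (3.95 ± 1.16, adjusted p = 0.0910), and Hspb1 and Cryab were called in no comparison. Hspa1a, the stress-induced heat shock protein, was at 385 and 1247 CPM against 2710 and 3563 in pericyte-gated cells and fell by 2.03 ± 0.38, a call lost at matched depth (-1.79, adjusted p = 0.0530).

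The files do not say which gate a cell came from. The eYFP entry was found in every member of the 2-month version 2, 18-month and 2-month version 3 libraries, at 3163, 8537 and 3757 CPM, and at 5040 and 2381 CPM in pericyte-gated cells of the 2-month libraries. It was also found in 68.0%, 63.5% and 73.1% of cells in the macrophage and dendritic gate, so its presence alone is no sign of the label. The Cd26 gene Dpp4 had 0 UMIs in the 68 members of version 2 and 5 UMIs in the 536 of version 3. Of the other sort genes, Itga9 was at 33.2 and 44.7 CPM and Cd200 at 140 and 174 CPM.

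Among the genes with the highest fitted fold against pericyte-gated cells, several had no UMI there, so their order is not read. Nptx2, a neuronal pentraxin, was at 343 and 156 CPM in members with no UMI in pericyte-gated cells, at least 90.8-fold and 12.5-fold higher. Fhod3, a formin that builds actin filaments in muscle, was at 133 and 210 CPM, at least 35.1-fold and 16.7-fold higher, and Scx, a transcription factor of tendon, was at least 17.1-fold and 12.5-fold higher. Foxd1, a forkhead factor of mesenchyme, was at least 13.7-fold and 4.76-fold higher. Grem1, a secreted inhibitor of bone morphogenetic proteins, was at 586 and 607 CPM against 1.26 CPM (1 UMI) and 0 in pericyte-gated cells, at least 48.4-fold higher with version 3. The bounds with version 3 are limited by its 22 pericyte-gated cells. Vtn, the vitronectin gene typical of pericytes, was at least 21.2-fold and 318-fold lower in members.

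Members were not uniform in Pcp4, nor in other genes. Among 1075 genes ranked by mean variation beyond counting error in 2-month members with at least 5 genes of the rule, Krt10, Dcn and Col1a1 came first. Pcp4 ranked 38. Among cells with at least 5 of the other 6 genes, which the presence of Pcp4 itself did not choose, it had no UMI in 20 of 63 members of the 2-month version 2 library (31.7%), in 106 of 494 of the version 3 library (21.5%) and in none of 14 at 18 months. Over 5 UMIs were found in 28 of 63, 276 of 494 and 13 of 14 of them. Cells with none and cells with over 5 UMIs had like depth, with median totals of 7523 and 7765.5 UMIs in version 2 and 12644.5 and 11559.5 in version 3. Of 2427 genes compared between these classes in both libraries, 3 were at least 2-fold higher in both among cells with over 5 UMIs, and none was at least 2-fold lower. Sod3 was 2.22-fold (0.914 to 6.14) and 4.05-fold (1.87 to 10.4) higher. Hoxa10 was 2.68-fold (0.967 to 9.18) and 3.69-fold (2.20 to 6.63) higher. Lum was 23.3-fold and 3.64-fold higher, resting on 2 and 4 UMIs in the cells with none. The intervals of Sod3 and Hoxa10 with version 2 hold 1, and these are ratios of summed cells with no test.

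Between 18 and 2 months, members of the 2 version 2 libraries were compared as ratios of CPM with exact 95% intervals for counting error, with no test, since each age is 1 library. Of 3858 genes with enough UMIs, 173 were at least 2-fold higher (4.48%) and 383 at least 2-fold lower (9.93%) at 18 months, 14.4% in all. With TMM scaling in place of totals the split was 121 higher and 477 lower. That scaling multiplies every ratio by 0.897 (-0.16 on the log2 scale), and the median ratio of all genes was 0.985 without it. The 18-month sum rests on 18 cells, and 1 of these carried a macrophage profile. Macrophage and dendritic markers summed to 3740 CPM at 18 months and 31.3 CPM at 2 months, and the genes with the highest ratios (Ccl4, Ccl3, Cd74, Lyz2) were of that kind. Values below leave out 2 members of each library that carried at least 7 markers of another class.

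Of 20 filament genes with enough UMIs, the interval of the ratio lay below 1 for 6 and above 1 for 1, and of 26 anchorage genes it lay below 1 for 5 and above 1 for none, with median ratios of 0.995 and 0.852 against 0.970 for all genes. Over all 3607 genes the interval lay below 1 for 174 and above 1 for 168. Several filament genes hold many UMIs, so their intervals are narrow and can exclude 1 at small differences, as for Acta2 (0.836 to 0.922). The ratio of 18 over 2 months was 1.04 for Tpm2, 1.02 for Tagln, 1.08 for Myh11 and 0.878 for Acta2, and the TMM factor would put the first 3 below 1. Des, a gene of the rule, and Acta2 had intervals below 1. In cells chosen by at least 4 of the other 6 genes Des was at 3834 CPM at 2 months and 2410 CPM at 18 months. Adra1a had a ratio of 0.991 (0.562 to 1.66) in the summed cells, while over all members its median per cell was 147 CPM at 2 months and 44.9 CPM at 18 months, when 9 of 18 members had a UMI. Lower levels were found for Mylk (0.698), Actg2 (0.651), Itga8 (0.560, 0.334 to 0.891), Palld, an actin-bundling protein (0.506), and Synm (0.366, 0.191 to 0.642). With up to 20% mitochondrial UMIs allowed and all members kept, the ratio of Itga8 was 0.803 in place of 0.536 and that of Palld 0.652 in place of 0.464. Filip1, a filamin partner, had 0 UMIs at 18 months and 49 at 2 months, at least 3.26-fold lower. In the other populations of the same libraries, with all cells kept, Synm had ratios of 1.10, 0.900 and 1.13 and Itga8 of 0.807, 0.965 and 0.924 in pericyte-gated, dermal-sheath-gated and remaining cells.

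Higher levels at 18 months included Pcp4 and Rgs2. Pcp4, a gene of the rule, had a ratio of 4.51 (3.95 to 5.14) and went from 912 to 3701 CPM with all members. In cells chosen by at least 4 of the other 6 genes it was at 878 CPM at 2 months and 3701 CPM at 18 months. It was at 0 in pericyte-gated cells of both ages and under 8 CPM elsewhere. Rgs2 had a ratio of 2.78 (2.24 to 3.43), and its ratios in pericyte-gated, dermal-sheath-gated and remaining cells were 0.594, 0.532 and 0.659, so it was lower at 18 months in those 3 populations. Rrad, a muscle GTPase, had a ratio of 6.35 (4.14 to 9.81) in members and 3.12 in pericyte-gated cells. Over all members Rrad had a UMI in 6 of 18 at 18 months and 29 of 68 at 2 months, so its ratio rests on few cells. The immediate early gene Fosb had a ratio of 3.84 in members and of 3.29, 2.50 and 2.59 in the other populations, and eYFP one of 2.83 in members and 2.48, 2.15 and 2.36 in the others, so these 2 moved in every population. With 1 library for each age, a difference between ages and a difference between libraries cannot be told apart.

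**Figure D5:**
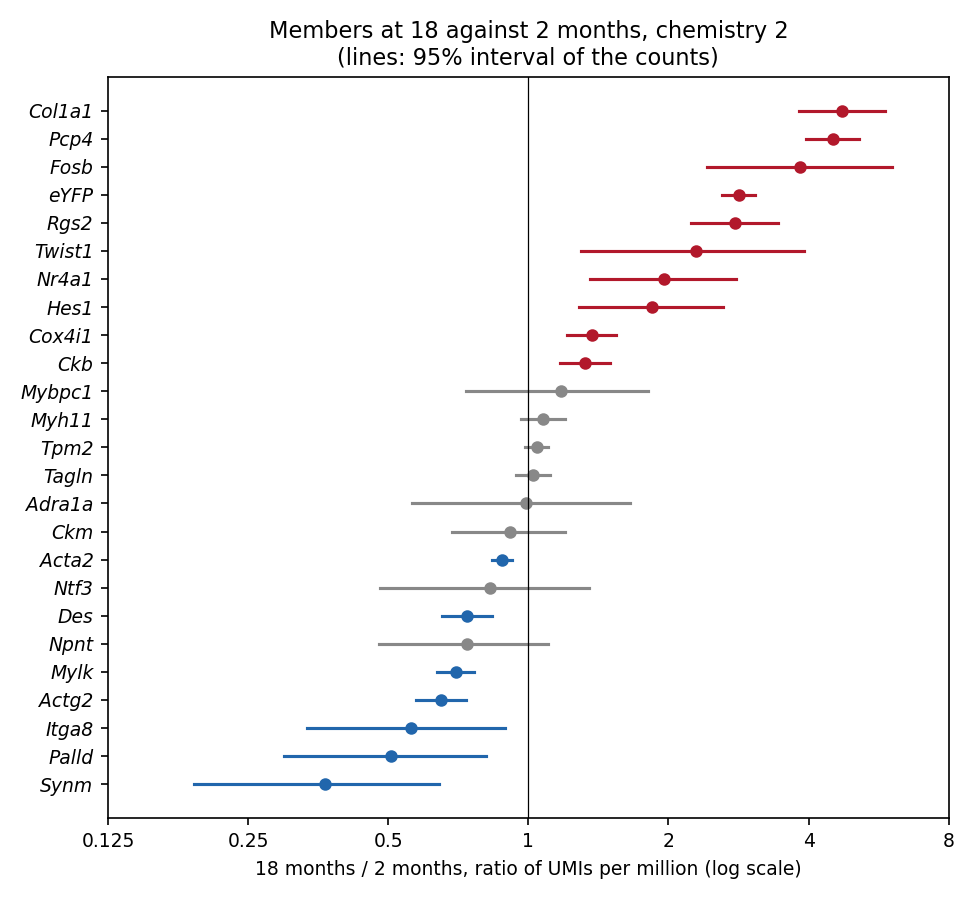
Ratio of CPM at 18 over 2 months (log axis) in version 2 members without those that carry markers of another class, with exact 95% intervals for counting error as lines, red where the interval lies above 1, blue where it lies below and grey where it holds 1. Pcp4 and Rgs2 lie to the right of 1, Synm and Itga8 to the left, and Adra1a and Tagln near 1. Pcp4, Des, Npnt, Ckm and Mybpc1 are genes of the rule.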

How the data were processed

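The deposited files hold raw counts, the UMIs of each of 27999 genes (an eYFP entry among them) in each barcode, and the authors did not normalise them. The submitters' processing notes name STAR, Cell Ranger 2.0.1, Seurat 2.1.0, mm10 and GRCm38.p5 with no roles. Version 3 file headers name software version 3.0.1. How cells were called is not given in the sources used here.

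The members and gene lists were chosen with earlier results of these data known. Counts were summed per library and population, scaled to CPM for description, and tested with edgeR 4.0.16 (R 4.3.3; TMM, filterByExpr, quasi-likelihood F-test, two-sided, library as block, Benjamini-Hochberg over all genes). Other tools were DESeq2 1.42.0, scanpy 1.11.5 and scipy 1.17.1 with Python 3.11.15. Populations of one library share mice, droplets and sequencing, so the library is a true pairing. Intervals are exact, 95%, and cover counting error only. Of simulated 4-fold changes among 13025 genes, 84% were called against pericyte-gated, 98% against dermal-sheath-gated and 95% against remaining cells. Of 2-fold changes, 16%, 24% and 24% were. The changes were set in 100 genes per fold that had enough expected UMIs in the smallest sum. The simulated spread was fixed and library effects were the same in all populations. These shares therefore do not hold for low genes or for genes whose differences vary between the libraries.

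Named genes were, from each list, up to 6 with the highest mean level in members and up to 4 called in the most comparisons, receptors with at least 10 UMIs, and the extreme genes of each comparison. Alternatives covered scaling, low-count filters, the gene rule, depth, doublet scores and libraries left out. Doublets were not removed: Scrublet called 9, 15, 56 and 2 cells in the libraries of 2 and 18 months (version 2) and 2 and 12 months (version 3), so the top 3% of scores were left out as an alternative. Members that carried at least 7 markers of another class numbered 2, 2, 24 and 3. Genes at 0 in a population were bounded against 3 UMIs per library. The 12-month library entered shares and levels only. One gene of the lists is not reported here.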

Additional observations from a re-analysis of the deposited data

How the results depend on the processing

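The library is the pairing of the populations, and with no replicate block the calls fell to 354 of 907 against pericyte-gated, 459 of 1733 against dermal-sheath-gated and 403 of 2123 against remaining cells, all of them among the calls made with it. Of the 269 calls for the genes named by the rule, 118 were lost without the block, and none of the 450 results changed sign under an alternative that tested it. Without the version 3 library of 2 months some of them had no value. Without a filter on low counts 1584 genes were called against pericyte-gated and 3322 against remaining cells, and DESeq2 called 1425 against pericyte-gated cells. With the 18-month library added the counts were 2043, 3338 and 4269. When 1 of the 2-month libraries was left out and the 18-month library kept, the counts ranged from 1044 to 1583, 1987 to 2359 and 2378 to 2770. The share of members at 12 over 2 months was 0.103 with at least 3 genes, 0.00545 with at least 5 and 0.00577 after thinning, all below 1, and that at 18 over 2 months stayed between 0.169 and 0.274. Genes past 2-fold between 18 and 2 months numbered 1412 of 6001 compared with at least 10 UMIs and 117 of 1777 with at least 50. The alternatives of a 20% mitochondrial limit and of leaving out members with markers of another class were chosen after seeing the data. The limits are 2 libraries of 2 months that differ in chemistry, sex and labelled reporter, 22 pericyte-gated cells in one of them, and 18 members at 18 months.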

Other observations

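Genes outside the lists were also high in members. Of the 247 genes called higher in all 3 comparisons, 49 belong to a list and 6 to the rule. Msrb1, a methionine sulfoxide reductase, was at 1666 and 1362 CPM in members of the 2-month version 2 and version 3 libraries and at most 238 CPM in any other population, with log2 fold changes of 3.34 ± 0.36, 4.56 ± 0.37 and 4.20 ± 0.36 against pericyte-gated, dermal-sheath-gated and remaining cells (edgeR). Cox6c, a subunit of cytochrome oxidase, was at 5095 and 3295 CPM in members and at most 1386 CPM elsewhere (2.09 ± 0.28, 2.20 ± 0.27 and 2.45 ± 0.28). Fgfr2, a fibroblast growth factor receptor, was at 347 and 299 CPM in members against 2.52 and 12.5 in pericyte-gated cells (6.06 ± 0.59). Cd59a, which protects cells from complement, was at 796 and 722 CPM against 62.9 and 20.9 in pericyte-gated cells (4.15 ± 0.48).

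Of the 68 genes called lower in all 3 comparisons (0.522% of those tested), Pdgfrb, the platelet-derived growth factor receptor of mural cells and fibroblasts, was at 20.3 and 23.8 CPM in members, 269 and 192 in pericyte-gated, 86.3 and 75.03 in dermal-sheath-gated and 47.6 and 68.7 CPM in remaining cells. Its log2 fold changes were -3.23 ± 0.34, -1.74 ± 0.32 and -1.20 ± 0.31. Notch1 was at 0 and 3.13 CPM against 37.8 and 104 CPM in pericyte-gated cells (-4.53 ± 0.68). Hoxa10 is not among these 68 and was at a higher level in members, at 46.1 and 28.0 CPM. It was at 6.29 and 4.18 CPM in pericyte-gated, 6.80 and 4.23 in dermal-sheath-gated and 9.89 and 10.8 CPM in remaining cells.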
